A study of Mus musculus with 13 samples.

Results

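Glycolysis and the cellular response to low oxygen were followed through 39 genes, 26 of glycolysis and 13 of the hypoxia response, taken by symbol from the 49315 gene identifiers counted in the study. Each was found under 1 Ensembl identifier, and each passed the filter on low counts in the comparisons below. Several steps of the pathway are served by separate genes that encode alternative forms of 1 enzyme or transporter (isozymes), and the balance within those families was compared between tissues.

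The study sequenced bulk RNA of whole melanomas and of the lymph nodes that drain them (tumour-draining lymph nodes, tdLN) in mice whose regulatory T cells can be made to lose Jag1, a Notch ligand. Counts of 9 libraries were used: 3 tumours of Foxp3Ctrl mice, 3 nodes of Foxp3ΔJag1 mice and 3 nodes of Foxp3Ctrl mice, the last being the group that the other sets are compared with. Foxp3ΔJag1 mice were Jag1 fl/fl. The controls are called wild type in a label and fl/wt in the design text, so they are named Foxp3Ctrl here. Per the design text all mice carried Foxp3eGFP-Cre-ERT2, a tamoxifen-dependent recombinase driven from the Foxp3 locus, so that recombination is limited to cells that express Foxp3. All were female, received 5 doses of tamoxifen (0.1 mg per g body weight) at 6 to 8 weeks of age, and after a 9-day washout were injected intradermally with 200000 B16F10 cells in matrigel at up to 11 weeks. B16F10 is a transplantable mouse melanoma cell line, so the tumours hold cells of 1 line together with whatever cells the host supplied. The 4 tumours of Foxp3ΔJag1 mice in the labels were not analysed here. Whether the replicates of a group are separate animals is given by the mouse codes in the library names only, and p-values measure the spread between these libraries.

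Glycolysis splits glucose into pyruvate in the cytosol and yields ATP without oxygen, and lactate dehydrogenase then turns pyruvate into lactate, which leaves the cell through monocarboxylate transporters. When oxygen is short, hypoxia-inducible factor (HIF), a pair of an oxygen-labile α subunit and the stable partner Arnt, escapes prolyl hydroxylation and degradation and activates genes of glycolysis, of vessel growth and of its own feedback. Rapidly growing tumours commonly run glycolysis at a high rate, and activated lymphocytes also raise it, while resting lymphocytes use little of it.

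Library totals were between 32117478 and 40968494 counts in tumours, and between 33157236 and 44540888 counts in nodes. Levels are given as CPM (counts scaled to a common library total), in the order of replicates 1, 2 and 3. Jag1 had 27.8, 20.7 and 23.8 CPM in Foxp3ΔJag1 nodes and 22.0, 23.2 and 24.4 CPM in Foxp3Ctrl nodes. These ranges overlap, and in a whole node the level does not check a deletion limited to Foxp3-expressing cells. Marker genes fitted the tissue labels. A list of 7 melanoma genes summed to between 17648 and 23065 CPM in tumours and between 10.8 and 36.5 CPM in nodes, while 5 B cell genes summed to between 1.95 and 3.09 CPM in tumours and between 2515 and 2717 CPM in nodes. A list of 7 T cell genes summed to between 28.8 and 49.0 CPM in tumours and between 1090 and 1411 CPM in nodes.

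The question of the first comparison was how these genes differ between tumour and draining node of Foxp3Ctrl mice. In tumours most of the glycolytic chain was higher. Of the 39 genes 30 rose, 4 fell and 5 did not pass the test (edgeR quasi-likelihood test, adjusted p under 0.05 after Benjamini-Hochberg adjustment over all 18566 genes tested). Of all genes tested 35.6% rose and 37.6% fell, so calls in either direction were common in this comparison (73.2%). At an added threshold of 2-fold, 29 of the 39 rose and 3 fell, against 22.1% and 26.3% of all genes. The median log2 fold change, tumour over node, was 1.85 for the 39 genes and -0.05 for all genes tested, whose middle 50% lay between -1.13 and 0.89. Among the 26 glycolysis genes 21 rose and 3 fell, with a median of 2.21. Among the 13 hypoxia response genes 9 rose and 1 fell, with a median of 1.35.

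Summed, the 39 genes took 2.93%, 3.53% and 2.38% of all counts in the 3 tumours, against 0.450%, 0.441% and 0.465% in Foxp3ΔJag1 nodes and 0.477%, 0.547% and 0.436% in Foxp3Ctrl nodes. The lowest tumour thus stood far above the highest node. For each of the 30 genes that rose, the lowest tumour lay above the highest Foxp3Ctrl node, and for each of the 4 that fell, the highest tumour lay below the lowest Foxp3Ctrl node. The same separation was seen for 36.5% of all genes upward and 41.5% downward. The melanoma, B cell and T cell sums above set tumour and node far apart. The sum of 6 macrophage markers overlapped, at between 478 and 699 CPM in tumours and between 430 and 815 CPM in nodes. Of these 6, Adgre1 was higher in tumours (log2 1.16, edgeR adjusted p = 0.0233) and Csf1r lower (log2 -1.39, edgeR adjusted p = 0.00912). The other 4 did not pass. A list of 5 proliferation markers summed to between 1058 and 1143 CPM in tumours and between 387 and 600 CPM in nodes. The part of cell content or proliferation in the differences was not tested, and in bulk samples fewer cells of a type and less RNA per cell cannot be told apart.

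**Figure D1:**
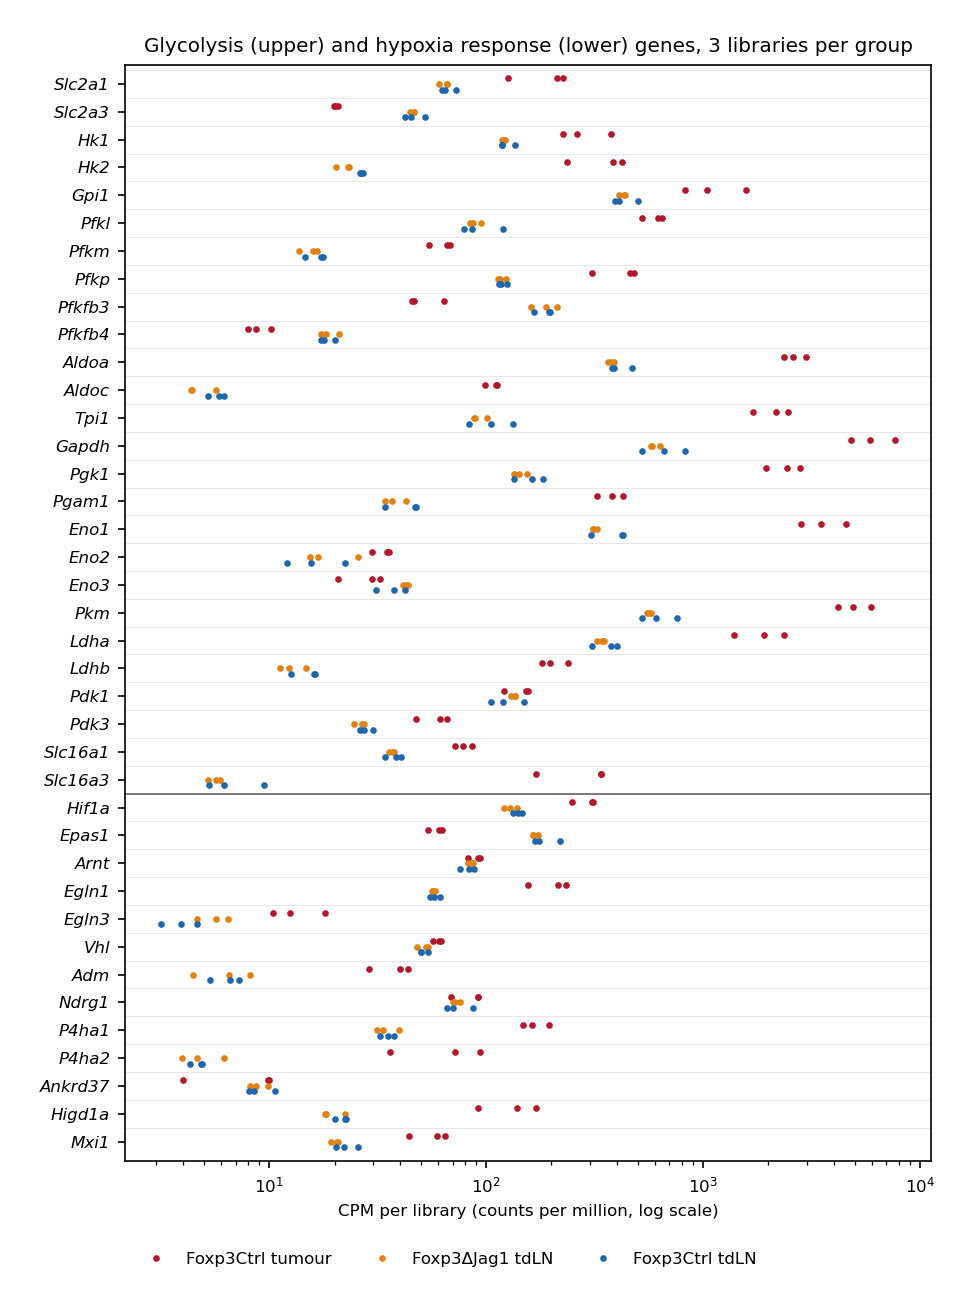
CPM of each of the 39 genes (log axis) in the 3 tumours, the 3 Foxp3ΔJag1 nodes and the 3 Foxp3Ctrl nodes, 1 point per library, with glycolysis genes above the line and hypoxia response genes below it. Tumour points lie to the right of the node points for most genes, and to the left for Slc2a3, Pfkfb3, Pfkfb4 and Epas1.

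**Figure D2:**
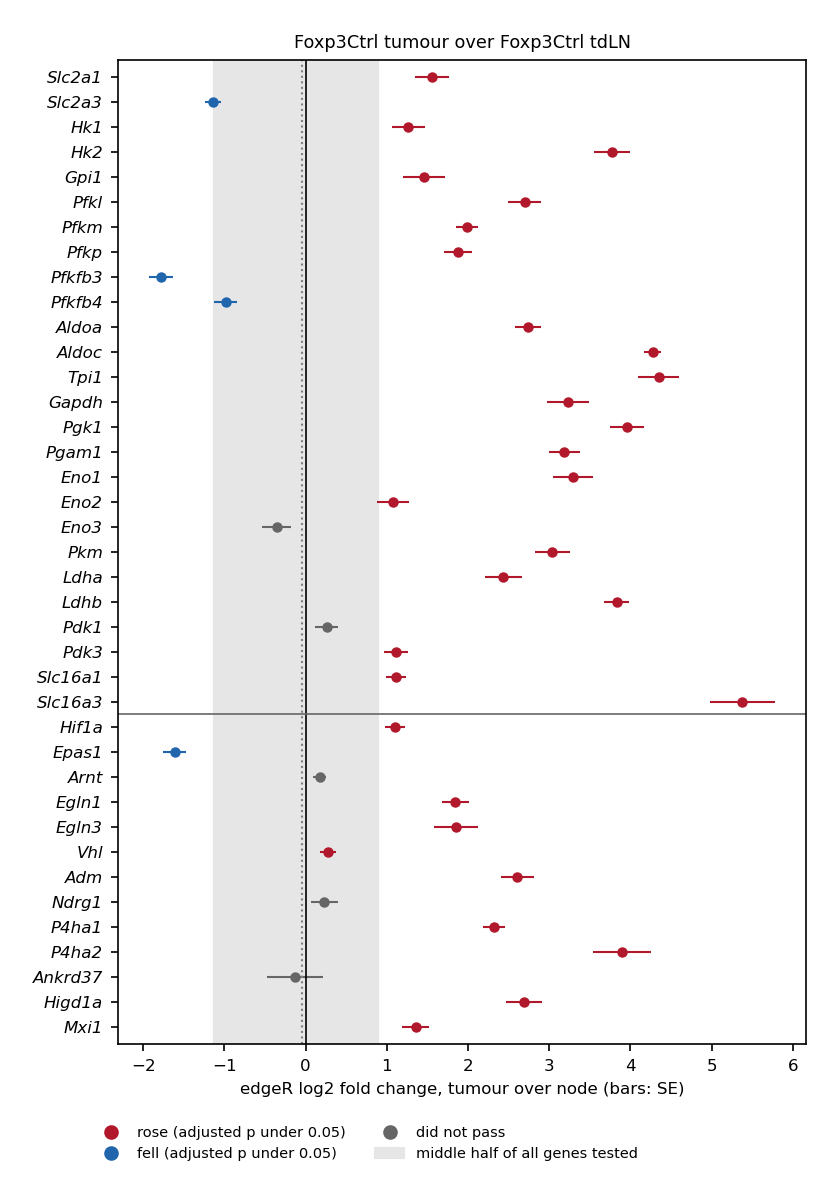
Log2 fold change of each gene, tumour over node in Foxp3Ctrl mice, from the edgeR fit, with bars for the standard error (SE); the grey band holds the middle 50% of all 18566 genes tested. Slc16a3 stood highest at 5.38 and Pfkfb3 lowest at -1.78.

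Bases upstream of the genes' starts were searched for the core of the HIF response element, because its sites are a known route by which these genes are switched on together. The searched letters were ACGTG or GCGTG on either strand, within 250 bases before each RefSeq start (GRCm38.p6). The E-box CACGTG, which other factors also bind, holds ACGTG on both strands. RefSeq windows were matched for 36 of the 39 genes (Slc2a3, Epas1 and Ndrg1 are the others), and 32 of the 36 held at least 1 match (88.9%). Over genes tested in tumour against node, 57.7% of 12454 windowed genes held a match, and over all 27025 windowed genes 41.5% did. The median number of CpG pairs in the windows was 15 for the 36 genes and 14 for the genes tested, each gene by the median over its starts. A match in any start counted, so genes with more starts had more room for one. The sets were not matched for the number of starts. Matches occurred in 26 of the 30 genes that rose, in both windowed genes that fell (Pfkfb3 and Pfkfb4) and in the 4 windowed genes that did not pass, and were missing in Gpi1, Tpi1, Eno2 and Vhl. A match is a string of letters, not a measured binding site.

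The stretches around the matches are shown for 5 genes that rose (3 of them among the 5 largest rises) and, for contrast, for Pfkfb3, which fell. Each runs 5′ to 3′ along the strand of the gene, taken from RefSeq promoter windows, with the matching letters in capitals.
Slc16a3, chr11:120949020-120949066, plus strand: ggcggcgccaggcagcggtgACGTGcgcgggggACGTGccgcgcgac
Pgk1, chrX:106186930-106186993, plus strand: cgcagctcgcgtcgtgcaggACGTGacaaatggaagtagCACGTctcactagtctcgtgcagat
P4ha2, chr11:54100797-54100879, plus strand: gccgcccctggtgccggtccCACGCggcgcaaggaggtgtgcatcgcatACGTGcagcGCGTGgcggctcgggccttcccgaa
Ldha, chr7:46845639-46845794, plus strand: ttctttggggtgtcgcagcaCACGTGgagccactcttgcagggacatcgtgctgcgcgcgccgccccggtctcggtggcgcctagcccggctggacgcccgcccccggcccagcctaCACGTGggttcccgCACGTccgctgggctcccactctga
Adm, chr7:110627547-110627627, plus strand: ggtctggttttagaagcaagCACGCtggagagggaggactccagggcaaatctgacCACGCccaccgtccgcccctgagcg
Pfkfb3, chr2:11502118-11502232, minus strand: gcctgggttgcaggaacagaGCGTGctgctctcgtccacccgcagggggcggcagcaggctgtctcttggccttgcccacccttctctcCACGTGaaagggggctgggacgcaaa
Slc16a3 and Pgk1 carry pairs of close ACGTG or CACGT matches, Ldha carries the E-box at separate places, and Pfkfb3 carries both forms although its level was lower in tumours.

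Glucose entry changed in opposite directions for the 2 glucose transporter genes in the set followed here. Slc2a1, the basal glucose transporter of many cell types, had 212, 226 and 126 CPM in tumours, against 66.1, 60.5 and 66.3 CPM in Foxp3ΔJag1 nodes and 64.9, 62.8 and 72.7 CPM in Foxp3Ctrl nodes. It rose 2.93-fold in tumour over Foxp3Ctrl node (log2 1.55, SE 0.21, edgeR adjusted p = 0.000346). Slc2a3, the high-affinity transporter of neurons and leukocytes, had 20.2, 19.8 and 20.7 CPM in tumours, against 46.6, 44.5 and 46.5 CPM in Foxp3ΔJag1 nodes and 45.0, 42.3 and 52.5 CPM in Foxp3Ctrl nodes. It was 2.21-fold lower in tumours (log2 -1.14, SE 0.09, edgeR adjusted p = 1.87e-05). The 3 tumours were nearly level for Slc2a3, while for Slc2a1 tumour 3 was clearly the lowest, and tumours and nodes did not overlap for either gene.

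Hexokinase traps glucose by phosphorylation, and the 2 of its genes in the set followed here, Hk2 and Hk1, rose unequally. Hk2, the inducible form common in tumours and muscle, had 424, 383 and 237 CPM in tumours, against 20.3, 23.2 and 23.2 CPM in Foxp3ΔJag1 nodes and 26.1, 26.4 and 27.1 CPM in Foxp3Ctrl nodes, a 13.7-fold rise over Foxp3Ctrl nodes (log2 3.77, SE 0.23, edgeR adjusted p = 4.41e-06). Hk1, the widely expressed form, had 261, 375 and 227 CPM in tumours, against 122, 121 and 118 CPM in Foxp3ΔJag1 nodes and 118, 136 and 119 CPM in Foxp3Ctrl nodes, a 2.40-fold rise (log2 1.26, SE 0.20, edgeR adjusted p = 0.000695). The node libraries lay close together for both genes, and the lowest tumour was above every node. Hk3, a hexokinase gene outside the set, had 75.3, 23.3 and 35.1 CPM in tumours and 13.8, 14.6 and 12.1 CPM in Foxp3Ctrl nodes. It also rose (log2 1.77, SE 0.43, edgeR adjusted p = 0.00888). Gpi1, the isomerase of the following step, had 1044, 1571 and 822 CPM in tumours and 410, 499 and 391 CPM in Foxp3Ctrl nodes, a rise of 2.75-fold (log2 1.46, SE 0.25, edgeR adjusted p = 0.0013). Exons of Gpi1 share 11.5% of their bases with the antisense gene Gm26762, whose reads may not be separable.

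Phosphofructokinase commits sugar to glycolysis, and its 3 genes rose together. Pfkl, the liver form, had 620, 644 and 524 CPM in tumours, against 94.8, 84.2 and 87.2 CPM in Foxp3ΔJag1 nodes and 86.2, 120 and 78.8 CPM in Foxp3Ctrl nodes (log2 fold change over Foxp3Ctrl nodes 2.70, SE 0.20, edgeR adjusted p = 1.33e-05). Pfkp, the platelet form, had 482, 463 and 308 CPM in tumours, against 113, 116 and 124 CPM in Foxp3ΔJag1 nodes and 115, 117 and 124 CPM in Foxp3Ctrl nodes (1.87, SE 0.17, edgeR adjusted p = 3.36e-05). Pfkm, the muscle form, was lower in level, with 54.6, 66.3 and 68.3 CPM in tumours, against 16.6, 13.8 and 16.0 CPM in Foxp3ΔJag1 nodes and 14.6, 17.7 and 17.3 CPM in Foxp3Ctrl nodes (1.99, SE 0.13, edgeR adjusted p = 5.95e-06). Tumour 3 was lowest for Pfkl and Pfkp but highest for Pfkm. A list of 6 skeletal muscle markers summed to 4.23, 4.59 and 275 CPM in the tumours and between 10.8 and 19.9 CPM in nodes, with none at 0 in every tumour, and Pfkm had a log2 fold change of 1.96 without tumour 3. In Pfkm 10.2% of exon bases are shared with the same-strand gene Gm26513.

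Bifunctional enzymes make and remove the main activator of phosphofructokinase, and the 2 of their genes among the 39 went the other way. Pfkfb3, the form with the strongest synthetic activity and a known HIF target, had 64.1, 46.5 and 45.5 CPM in tumours, against 211, 162 and 189 CPM in Foxp3ΔJag1 nodes and 166, 194 and 198 CPM in Foxp3Ctrl nodes. It was 3.43-fold lower in tumours, with the largest fall of the 39 genes (log2 -1.78, SE 0.15, edgeR adjusted p = 2.09e-05). Pfkfb4, also known as hypoxia-inducible, had 10.2, 8.01 and 8.66 CPM in tumours, against 17.3, 21.0 and 18.3 CPM in Foxp3ΔJag1 nodes and 17.9, 17.4 and 20.1 CPM in Foxp3Ctrl nodes (log2 -0.99, SE 0.14, edgeR adjusted p = 0.000327). Every tumour lay below every node for these 2 genes, in contrast to the rises of the enzymes on either side of them. Outside the 39, Pfkfb1 was also lower in tumours (log2 -0.96, edgeR adjusted p = 0.0105), while Pfkfb2 did not pass (log2 0.04, edgeR adjusted p = 0.867).

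From aldolase to pyruvate kinase the main gene of every step rose, by 6.68-fold (Aldoa) or more. Aldoa, the main aldolase, had 2608, 2992 and 2359 CPM in tumours, against 376, 364 and 390 CPM in Foxp3ΔJag1 nodes and 389, 468 and 380 CPM in Foxp3Ctrl nodes (log2 fold change over Foxp3Ctrl nodes 2.74, SE 0.16, edgeR adjusted p = 3.25e-06). Aldoc, the brain form, had 112, 111 and 98.5 CPM in tumours, against 4.35, 4.40 and 5.70 CPM in Foxp3ΔJag1 nodes and 5.89, 5.20 and 6.20 CPM in Foxp3Ctrl nodes. Its 19.3-fold rise had the smallest adjusted p of the 39 genes (log2 4.27, SE 0.11, edgeR adjusted p = 1.15e-07), and its 3 tumours were close to each other. Tpi1, triosephosphate isomerase, had 2171, 2455 and 1703 CPM in tumours, against 88.3, 88.4 and 101 CPM in Foxp3ΔJag1 nodes and 105, 133 and 83.0 CPM in Foxp3Ctrl nodes, a 20.4-fold rise (log2 4.35, SE 0.25, edgeR adjusted p = 3.65e-06). Tpi1 was thus second only to Slc16a3 in the size of its rise.

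Gapdh, the dehydrogenase often used as a reference gene, had 5854, 7628 and 4781 CPM in tumours, against 575, 580 and 635 CPM in Foxp3ΔJag1 nodes and 662, 824 and 523 CPM in Foxp3Ctrl nodes. It rose 9.41-fold between these tissues (log2 3.23, SE 0.26, edgeR adjusted p = 1.87e-05). Pgk1, phosphoglycerate kinase, which makes the first ATP of the pathway, had 2437, 2803 and 1942 CPM in tumours, against 134, 141 and 154 CPM in Foxp3ΔJag1 nodes and 162, 183 and 135 CPM in Foxp3Ctrl nodes (log2 3.96, SE 0.21, edgeR adjusted p = 2.07e-06). Pgam1, phosphoglycerate mutase, had 382, 426 and 324 CPM in tumours and 47.6, 46.9 and 34.1 CPM in Foxp3Ctrl nodes (log2 3.19, SE 0.19, edgeR adjusted p = 4.26e-06). In these 3 genes tumour 2 was highest and tumour 3 lowest, as in Aldoa and Tpi1. Processed copies that carry the names of these genes took few counts, with Pgk1-rs7 between 1.29 and 1.39 CPM and Pgam1-ps2 between 1.47 and 1.74 CPM in tumours. Copies under other symbols were not searched for.

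Enolase moved towards 1 gene. Eno1, the ubiquitous form, had 3509, 4548 and 2821 CPM in tumours, against 311, 312 and 323 CPM in Foxp3ΔJag1 nodes and 426, 421 and 305 CPM in Foxp3Ctrl nodes (log2 fold change over Foxp3Ctrl nodes 3.29, SE 0.24, edgeR adjusted p = 1.2e-05). Its near copy Eno1b had 2.96, 12.1 and 12.1 CPM in tumours, and 0.386, 42.4 and 28.6 CPM in Foxp3Ctrl nodes. Eno2, the neuronal form, had 35.8, 29.8 and 35.1 CPM in tumours, against 25.7, 15.5 and 16.9 CPM in Foxp3ΔJag1 nodes and 12.1, 15.6 and 22.3 CPM in Foxp3Ctrl nodes (log2 1.08, SE 0.19, edgeR adjusted p = 0.00134). Eno3, the muscle form, had 20.8, 29.9 and 32.4 CPM in tumours, against 42.6, 41.4 and 43.7 CPM in Foxp3ΔJag1 nodes and 31.2, 37.7 and 42.2 CPM in Foxp3Ctrl nodes. The highest tumour overlapped the lowest Foxp3Ctrl node, and Eno3 did not pass the test (log2 -0.36, SE 0.18, edgeR adjusted p = 0.107). With the mouse as a block, which the shared mouse codes of tumour and node allow, its edgeR adjusted p was 0.0205 and its log2 fold change -0.38. The muscle marker sum of 275 CPM in tumour 3 stands beside its highest Eno3 level, and without tumour 3 the log2 fold change of Eno3 was -0.45. Pkm, pyruvate kinase, had 4905, 5929 and 4170 CPM in tumours and 608, 759 and 524 CPM in Foxp3Ctrl nodes (log2 3.04, SE 0.22, edgeR adjusted p = 8.63e-06). Counts per gene do not separate its splice forms. In Pkm 15.3% of exon bases are shared with the same-strand gene Gm49759.

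The fate of pyruvate was represented by lactate dehydrogenase, pyruvate dehydrogenase kinases and monocarboxylate transporters. Ldha, whose enzyme favours lactate formation, had 1916, 2361 and 1386 CPM in tumours, against 326, 343 and 351 CPM in Foxp3ΔJag1 nodes and 375, 403 and 309 CPM in Foxp3Ctrl nodes. It rose 5.40-fold (log2 2.43, SE 0.23, edgeR adjusted p = 4.15e-05). Ldhb, whose enzyme favours lactate use, had 181, 196 and 238 CPM in tumours, against 11.2, 14.8 and 12.4 CPM in Foxp3ΔJag1 nodes and 12.7, 16.0 and 16.2 CPM in Foxp3Ctrl nodes, and rose 14.2-fold (log2 3.83, SE 0.15, edgeR adjusted p = 5.63e-07). Ldha was lowest and Ldhb highest in tumour 3, so that the 2 genes ordered the tumours differently.

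Pyruvate dehydrogenase kinases hold pyruvate back from the mitochondrion. Pdk1, a known HIF target, had 153, 155 and 120 CPM in tumours, against 136, 130 and 135 CPM in Foxp3ΔJag1 nodes and 120, 105 and 150 CPM in Foxp3Ctrl nodes. The groups overlapped and Pdk1 did not pass (log2 0.26, SE 0.14, edgeR adjusted p = 0.131), although it did without tumour 3 (log2 0.40, edgeR adjusted p = 0.031). Pdk3 had 65.9, 61.2 and 47.3 CPM in tumours, against 24.5, 26.9 and 27.4 CPM in Foxp3ΔJag1 nodes and 30.0, 27.4 and 26.1 CPM in Foxp3Ctrl nodes, a 2.17-fold rise with no overlap (log2 1.12, SE 0.15, edgeR adjusted p = 0.000231).

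Lactate export gave the largest rise of the 39 genes. Slc16a3, the low-affinity exporter of glycolytic cells, had 337, 338 and 170 CPM in tumours, against 5.67, 5.25 and 5.90 CPM in Foxp3ΔJag1 nodes and 5.29, 9.45 and 6.20 CPM in Foxp3Ctrl nodes. The fold change was 41.6 (log2 5.38, SE 0.40, edgeR adjusted p = 3.38e-05). Slc16a1, the more widely expressed transporter, had 78.0, 86.4 and 72.2 CPM in tumours, against 37.2, 35.7 and 37.7 CPM in Foxp3ΔJag1 nodes and 40.5, 38.5 and 34.2 CPM in Foxp3Ctrl nodes, a 2.17-fold rise (log2 1.12, SE 0.12, edgeR adjusted p = 8.9e-05). In every node Slc16a1 exceeded Slc16a3 in CPM, and in every tumour the order was reversed.

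Isozyme balance was compared as the log2 ratio of the 2 genes' counts within a library, which needs no scaling between libraries. Of 15 pairs examined, tumours and Foxp3Ctrl nodes did not overlap in 13, each at p = 0.1 in a 2-sided exact permutation test, the smallest value that 3 libraries against 3 allow. No pair could therefore pass 0.05. Single genes also lay apart often in this comparison, 36.5% of all genes upward and 41.5% downward. No such share was computed for other pairs of genes. The largest shift was in monocarboxylate transport, where log2 Slc16a3 over Slc16a1 was 2.11, 1.97 and 1.24 in tumours, against -2.71, -2.76 and -2.67 in Foxp3ΔJag1 nodes and -2.93, -2.02 and -2.46 in Foxp3Ctrl nodes, a change of 18.9-fold in the ratio. Log2 Eno3 over Eno1 shifted by -3.66 and Eno2 over Eno1 by -2.18. Log2 Slc2a1 over Slc2a3 shifted by 2.65 and Hk2 over Hk1 by 2.49.

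Smaller shifts were found for the other families. Log2 Aldoc over Aldoa shifted by 1.53, and Ldha over Ldhb by -1.42, with ratios of 3.41, 3.59 and 2.54 in tumours, against 4.86, 4.53 and 4.83 in Foxp3ΔJag1 nodes and 4.89, 4.65 and 4.25 in Foxp3Ctrl nodes. The rise of Ldha was thus accompanied by a larger rise of Ldhb from a low level. Log2 Pfkp over Pfkl shifted by -0.88, Pfkm over Pfkl by -0.74, Pdk3 over Pdk1 by 0.85 and Pfkfb4 over Pfkfb3 by 0.80. The exception among the glycolysis pairs was Pfkp over Pfkm, whose ratio of 3.14, 2.80 and 2.17 in tumours overlapped 2.97, 2.71 and 2.85 in Foxp3Ctrl nodes (difference -0.14, exact permutation p = 0.8).

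**Figure D3:**
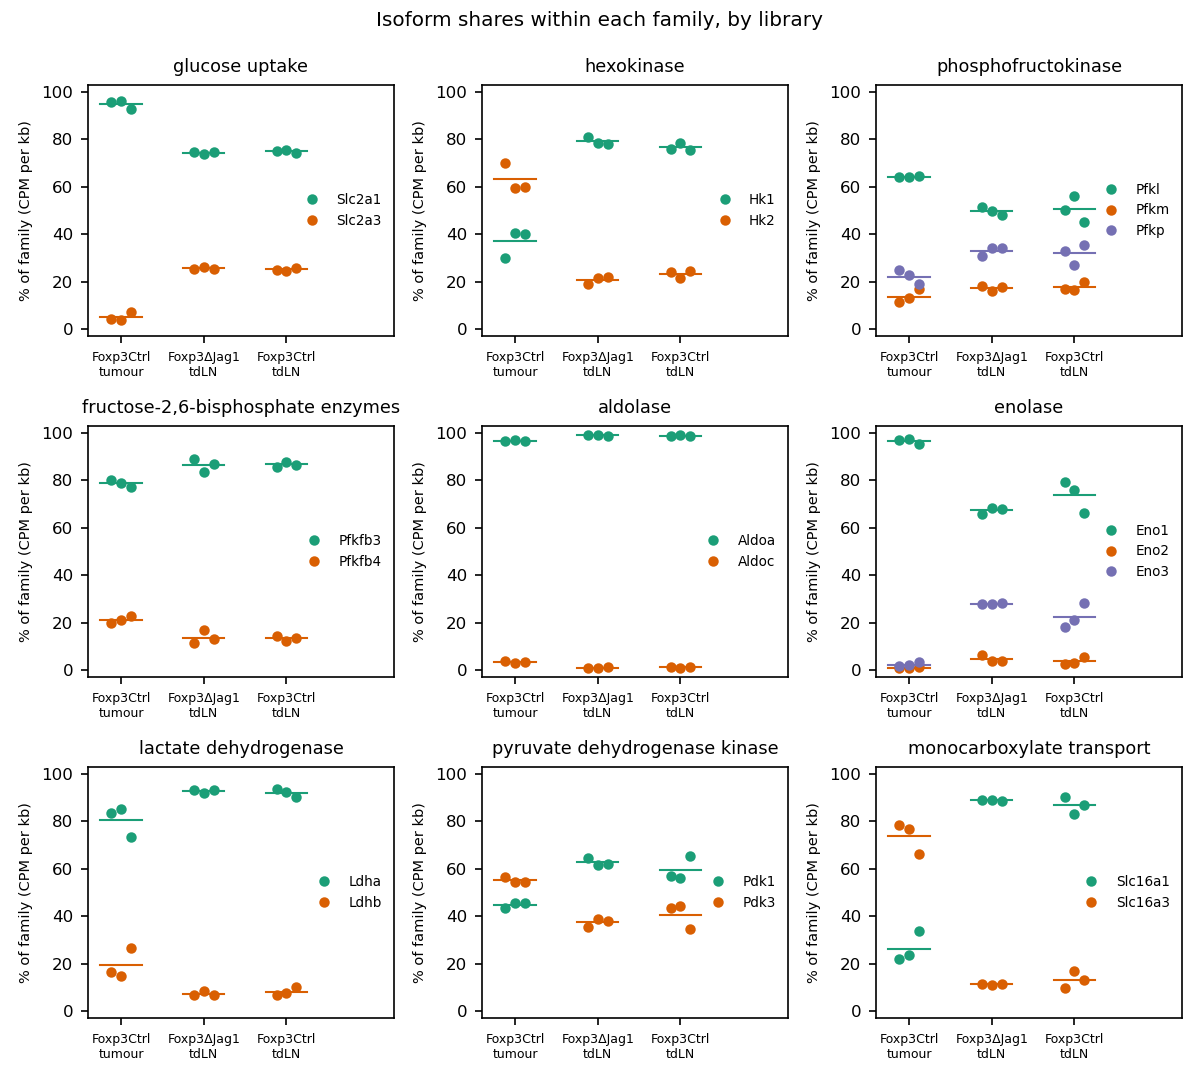
Share of each isozyme gene in its family's summed level (CPM per kb of exon length, in percent) in each library; lines mark group means. By this length Slc16a3, Hk2 and Pdk3 lead their families in tumours and not in nodes, and Slc2a3 and Eno3 shrink in tumours. By the longest transcript the mean tumour shares of Hk2 and Pdk3 were 48.2% and 49.9%, so their lead depends on the length used.

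To compare levels between genes, CPM was divided by exon length in kb. Shares were taken among the 39 genes only, so isozymes outside them were left out. On this scale Slc16a3 made up 78.2%, 76.5% and 66.2% of the monocarboxylate transporter pair in tumours, against 11.3%, 10.9% and 11.5% in Foxp3ΔJag1 nodes and 9.80%, 17.0% and 13.1% in Foxp3Ctrl nodes. Hk2 made up 69.9%, 59.4% and 59.9% of the hexokinase pair in tumours, against 19.2%, 21.5% and 21.8% in Foxp3ΔJag1 nodes and 24.0%, 21.6% and 24.6% in Foxp3Ctrl nodes. With the length of the longest transcript in place of the exon union the mean Hk2 share in tumours was 48.2%, so its lead over Hk1 there depends on the length used, while its larger share in tumours than in nodes does not. Pdk3 made up 56.7%, 54.5% and 54.4% of the kinase pair in tumours, against 35.3%, 38.6% and 38.1% in Foxp3ΔJag1 nodes and 43.3%, 44.1% and 34.6% in Foxp3Ctrl nodes, with a mean of 49.9% in tumours by the longest transcript. Eno3 made up 1.78%, 1.98% and 3.39% of the enolases in tumours, against 27.9%, 28.0% and 28.3% in Foxp3ΔJag1 nodes and 18.0%, 21.0% and 28.3% in Foxp3Ctrl nodes. Aldoc, despite its 19.3-fold rise, remained at 3.68%, 3.19% and 3.59% of aldolase in tumours, against 1.33%, 0.982% and 1.43% in Foxp3Ctrl nodes. Ldhb made up 16.6%, 14.9% and 26.5% of lactate dehydrogenase in tumours, against 6.64%, 7.73% and 9.98% in Foxp3Ctrl nodes.

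The order of the 39 genes by level per kb depended on the length used. By exon union the tumours were led by Gapdh, at 1473 ± 348 CPM per kb (SD, n = 3), then Pgk1 at 1067 ± 193 and Pkm at 1000.1 ± 177 CPM per kb. Pgk1, Pkm and Aldoa (911 ± 110 CPM per kb) did not differ beyond their SDs. By the longest transcript Pkm led at 2056 ± 363 CPM per kb, Gapdh followed at 1851 ± 437 and Pgk1 was ranked 6, with overlapping spreads of the leading genes. By exon union Tpi1 was ranked 5 in tumours and 8 in Foxp3Ctrl nodes, and Slc16a3 was ranked 15 in tumours and 38 of 39 in Foxp3Ctrl nodes. Pfkfb3 was ranked 35 in tumours and 10 in Foxp3Ctrl nodes, at 6.88 and 24.6 CPM per kb.

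The HIF subunits diverged. Hif1a, the α subunit found in most cell types, had 307, 249 and 311 CPM in tumours, against 121, 129 and 139 CPM in Foxp3ΔJag1 nodes and 146, 141 and 132 CPM in Foxp3Ctrl nodes. It rose 2.14-fold (log2 1.10, SE 0.12, edgeR adjusted p = 7.72e-05). Epas1, which encodes the second α subunit and is prominent in endothelium, had 62.4, 60.7 and 53.8 CPM in tumours, against 174, 164 and 164 CPM in Foxp3ΔJag1 nodes and 167, 218 and 175 CPM in Foxp3Ctrl nodes. It was 3.05-fold lower in tumours, with no overlap (log2 -1.61, SE 0.14, edgeR adjusted p = 2.52e-05). All 5 endothelial markers examined were lower in tumours as well, with summed levels of 181, 179 and 112 CPM in tumours and of 587, 765 and 589 CPM in Foxp3Ctrl nodes, none at 0, and their part in the fall of Epas1 was not tested. Log2 Epas1 over Hif1a was -2.30, -2.04 and -2.53 in tumours, against 0.52, 0.34 and 0.24 in Foxp3ΔJag1 nodes and 0.19, 0.63 and 0.40 in Foxp3Ctrl nodes. Epas1 counts thus exceeded Hif1a counts in every node and stood far below them in every tumour. Arnt, the shared partner, had 93.4, 82.8 and 91.3 CPM in tumours, against 86.2, 86.8 and 82.4 CPM in Foxp3ΔJag1 nodes and 83.0, 76.0 and 88.2 CPM in Foxp3Ctrl nodes, and did not pass (log2 0.17, SE 0.08, edgeR adjusted p = 0.0924), with an adjusted p of 0.0395 without tumour 2.

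The genes that take HIF down were also higher. Egln1, the main prolyl hydroxylase that marks HIF for degradation, had 214, 232 and 155 CPM in tumours, against 57.9, 56.2 and 56.8 CPM in Foxp3ΔJag1 nodes and 57.3, 61.3 and 55.2 CPM in Foxp3Ctrl nodes (log2 fold change over Foxp3Ctrl nodes 1.85, SE 0.17, edgeR adjusted p = 2.92e-05). Egln3, a hydroxylase that HIF itself induces, had 12.5, 18.0 and 10.4 CPM in tumours, against 6.48, 5.67 and 4.65 CPM in Foxp3ΔJag1 nodes and 3.94, 4.67 and 3.19 CPM in Foxp3Ctrl nodes (1.85, SE 0.27, edgeR adjusted p = 0.000427). Their ratio overlapped between tumour and Foxp3Ctrl node (exact permutation p = 1). Vhl, the ubiquitin ligase subunit that recognises hydroxylated HIF, had 60.7, 62.1 and 56.8 CPM in tumours, against 54.2, 48.1 and 52.9 CPM in Foxp3ΔJag1 nodes and 50.3, 53.8 and 49.9 CPM in Foxp3Ctrl nodes. Its rise was the smallest that passed (1.21-fold, log2 0.28, SE 0.10, edgeR adjusted p = 0.0309), and the adjusted p was 0.0979 without Foxp3Ctrl node 1, 0.0987 without Foxp3Ctrl node 3 and 0.0648 without tumour 1.

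Of 7 further response genes 5 rose. P4ha2, a collagen prolyl hydroxylase, had 93.3, 72.1 and 36.1 CPM in tumours, against 6.17, 3.95 and 4.67 CPM in Foxp3ΔJag1 nodes and 4.32, 4.83 and 4.91 CPM in Foxp3Ctrl nodes, a 14.9-fold rise (log2 3.90, SE 0.36, edgeR adjusted p = 7.8e-05). P4ha1, which encodes the other catalytic subunit, had 194, 163 and 148 CPM in tumours, against 39.8, 31.4 and 33.5 CPM in Foxp3ΔJag1 nodes and 35.2, 37.5 and 32.6 CPM in Foxp3Ctrl nodes (log2 2.31, SE 0.14, edgeR adjusted p = 3.27e-06). Tumour 1 was highest and tumour 3 lowest for both. Fibroblast markers (5 genes), which include collagens, summed to 4426, 2185 and 1523 CPM in the tumours and between 484 and 1042 CPM in nodes, with 3 of 5 higher and 2 lower in tumours and none at 0. Their part in these rises was not tested.

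Higd1a, a mitochondrial protein of the hypoxia response, had 139, 169 and 92.2 CPM in tumours and 22.6, 20.1 and 22.3 CPM in Foxp3Ctrl nodes (log2 2.68, SE 0.22, edgeR adjusted p = 2.53e-05). Adm, the vasodilator adrenomedullin, had 40.0, 43.6 and 28.8 CPM in tumours and 5.31, 7.27 and 6.63 CPM in Foxp3Ctrl nodes (log2 2.60, SE 0.20, edgeR adjusted p = 1.36e-05). Mxi1, a Myc antagonist, had 64.3, 59.2 and 44.2 CPM in tumours and 20.4, 25.6 and 22.1 CPM in Foxp3Ctrl nodes (log2 1.35, SE 0.17, edgeR adjusted p = 0.000176). In all 3 genes the groups lay apart and tumour 3 was the lowest tumour.

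Ndrg1 and Ankrd37, commonly used as markers of hypoxia, did not pass the test. Ndrg1 had 91.9, 92.0 and 69.2 CPM in tumours and 70.5, 87.1 and 66.1 CPM in Foxp3Ctrl nodes (log2 0.23, SE 0.17, edgeR adjusted p = 0.246), with an adjusted p of 0.0493 without tumour 3. Ankrd37 had 9.83, 10.0 and 4.02 CPM in tumours and 8.04, 10.7 and 8.55 CPM in Foxp3Ctrl nodes (log2 -0.14, SE 0.35, edgeR adjusted p = 0.736). Tumours 1 and 2 sat among the nodes for Ankrd37 and tumour 3 below them all, and the sign turned without tumour 3, to 0.22, and without Foxp3Ctrl node 2, to 0.03. Exons of Ankrd37 share 26.4% of their bases with genes on the other strand (Lrp2bp and Ufsp2), and those of Higd1a 22.5% with Gm47112.

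The tumours differed among themselves, mostly in that tumour 3 was low. Tumour 3 was the lowest tumour for 31 of the 39 genes, 20 of 26 in glycolysis and 11 of 13 in the hypoxia response. The highest was tumour 2 for 22 of 39, tumour 1 for 12 and tumour 3 for 5. How often tumour 3 was the lowest over all genes was not computed, so these counts may not be particular to the 39. Of the 8 genes that were not lowest in tumour 3, 5 were highest in tumour 3 (Hif1a, Ldhb, Pfkm, Eno3 and Slc2a3), and Arnt, Eno2 and Pfkfb4 were lowest in tumour 2. Summed over the hypoxia response genes the tumours had 1382, 1314 and 1101 CPM, against 675, 645 and 672 CPM in Foxp3ΔJag1 nodes and 675, 747 and 667 CPM in Foxp3Ctrl nodes. The summed melanoma markers were highest in tumour 3, at 17648, 18927 and 23065 CPM, although Mitf was lowest there (656, 810 and 607 CPM) and Sox10 was highest in tumour 2 (606, 876 and 674 CPM). Tumour 3 was the lowest for adipocyte markers (49.6, 46.6 and 2.74 CPM), erythroid markers (82.8, 60.3 and 24.7 CPM), endothelial markers (181, 179 and 112 CPM) and fibroblast markers (4426, 2185 and 1523 CPM). The part of these in the order of the tumours was not tested. Without tumour 3 the number of genes that rose was 32, and with all libraries it was 30.

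The rest of these pathways was examined through 5 further lists of 85 genes. Of 28 HIF target genes outside the 39, 23 rose and 3 fell, with a median log2 fold change of 2.64. Of all genes tested 35.6% rose and 37.6% fell. Plod2, a collagen lysyl hydroxylase, had 230, 179 and 152 CPM in tumours and 9.33, 5.78 and 7.05 CPM in Foxp3Ctrl nodes (log2 4.72, SE 0.24, edgeR adjusted p = 2.09e-06). Mif, a cytokine, had 570, 676 and 545 CPM in tumours and 87.4, 89.0 and 72.9 CPM in Foxp3Ctrl nodes (log2 2.90, SE 0.15, edgeR adjusted p = 2.01e-06). Both lay far outside the node range. The hormone gene Stc2 fell (log2 -3.81, edgeR adjusted p = 0.00298), as did the carbonic anhydrase gene Car12 (log2 -1.30, edgeR adjusted p = 0.00752).

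The 10 oxygen sensing genes outside the 39 were split, with 4 higher and 5 lower and a median of 0.03. All genes tested were split as well, with 35.6% higher and 37.6% lower. Rbx1 and Elob, subunits of the Vhl ubiquitin ligase, rose by log2 1.15 (edgeR adjusted p = 9.63e-06) and 1.21 (2.45e-05). Crebbp, a HIF coactivator, fell by 1.31 on the log2 scale (edgeR adjusted p = 3.98e-06) and Egln2, a further HIF hydroxylase, by 0.74 (0.00016). Egln2 thus moved against Egln1 and Egln3. Of the other isozymes and transporters of glycolysis, 17 of 24 passed the filter on low counts. Of these 6 rose and 6 fell (median 0.04), a split like that of all genes. Bpgm, bisphosphoglycerate mutase, rose (log2 1.33, edgeR adjusted p = 1.03e-05), as did Tigar, which lowers the phosphofructokinase activator (log2 1.52, edgeR adjusted p = 1.33e-05). Slc2a9, a urate transporter, fell (log2 -1.34, edgeR adjusted p = 0.000125), and so did Slc16a7, a high-affinity monocarboxylate transporter (log2 -2.13, edgeR adjusted p = 0.000143).

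In the pentose phosphate pathway, which branches off after hexokinase, 3 of 7 genes rose and 2 fell (median 0.09), against 35.6% and 37.6% of all genes. Pgd rose (log2 1.33, edgeR adjusted p = 5.4e-05), as did Tkt (log2 0.89, edgeR adjusted p = 0.000271), while Rpia (log2 -0.62, edgeR adjusted p = 0.00189) and Taldo1 (log2 -0.48, edgeR adjusted p = 0.00711) fell. Among genes of pyruvate entry and gluconeogenesis 8 of 13 tested rose and 2 fell (median 0.51), against the same shares of all genes. Those with the smallest p were Dld and Dlat, subunits of pyruvate dehydrogenase (log2 1.09 and 1.30, edgeR adjusted p = 1.96e-05 and 1.99e-05). Pdp1, the phosphatase that reactivates that complex (log2 -0.95, edgeR adjusted p = 0.000388), and Pck2, of gluconeogenesis (log2 -0.83, edgeR adjusted p = 0.00209), fell. The medians of these 4 lists outside the HIF targets lay within the middle 50% of all genes, whereas that of the HIF targets lay above it.

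**Figure D4:**
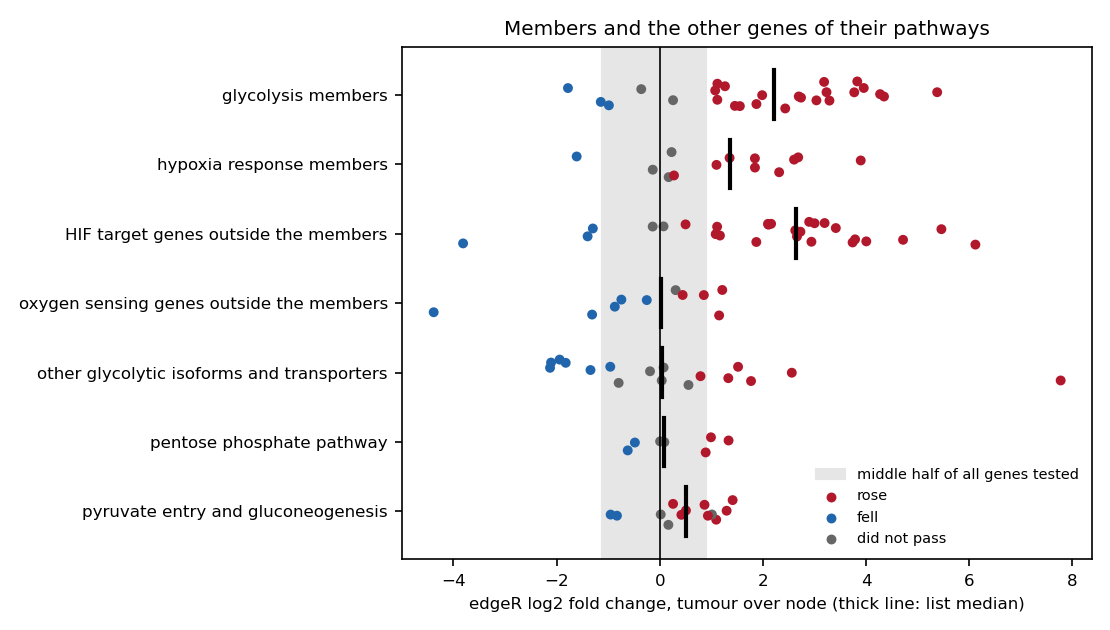
Log2 fold change, tumour over node, of each tested gene of the glycolysis and hypoxia response sets and of the 5 further lists, coloured by call, with thick lines at list medians and a grey band over the middle 50% of all genes tested. The medians are 2.21, 1.35 and 2.64 in the upper 3 rows and between 0.03 and 0.51 in the lower 4. The point farthest right is Hkdc1, a hexokinase-like gene with between 1.53 and 4.17 CPM in tumours and at most 0.0232 CPM in Foxp3Ctrl nodes.

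The second comparison asked whether loss of Jag1 in Foxp3-expressing cells was accompanied by a difference in these genes in the draining node. None of the 39 genes was called (edgeR quasi-likelihood test, 18440 genes tested), with 0 called by DESeq2 and 0 by limma-voom, while 7 of all genes were (0.038%, 0.0325% upward and 0.00542% downward). At an unadjusted p under 0.05, 1 of the 39 and 3.15% of all genes stood out. Relative to Foxp3Ctrl nodes, 32 of the 39 were lower in Foxp3ΔJag1 nodes, with a median log2 fold change of -0.08, against -0.0045 for all genes, of which 51.2% were lower. This count rests in part on Foxp3Ctrl node 2, which was the highest control node for 20 of the 39 genes. How often it was the highest over all genes was not computed. That node also had the highest macrophage sum of the 6 nodes (815 CPM, against 430 to 622 CPM in the others), the highest endothelial sum (765 CPM, against 587 to 624 CPM) and the highest fibroblast sum (1042 CPM, against 484 to 935 CPM), and their part in the count was not tested. Without Foxp3Ctrl node 2 24 of 39 genes were lower and the median was -0.02, and without Foxp3Ctrl node 3 the median was -0.15.

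The gene with the smallest p was Hk2, with 20.3, 23.2 and 23.2 CPM in Foxp3ΔJag1 nodes and 26.1, 26.4 and 27.1 CPM in Foxp3Ctrl nodes. It was the only one of the 39 whose groups did not overlap, which 3.18% of all genes showed in this direction and 4.11% in the other. It was also the only one with an unadjusted p under 0.05, and did not pass after adjustment (log2 -0.28, SE 0.09, edgeR adjusted p = 0.953). Egln3 had 6.48, 5.67 and 4.65 CPM in Foxp3ΔJag1 nodes and 3.94, 4.67 and 3.19 CPM in Foxp3Ctrl nodes (log2 0.48, SE 0.21, edgeR adjusted p = 0.953). Its groups touched, with the lowest Foxp3ΔJag1 node just under the highest Foxp3Ctrl node. Eno1 had 311, 312 and 323 CPM in Foxp3ΔJag1 nodes and 426, 421 and 305 CPM in Foxp3Ctrl nodes (log2 -0.31, SE 0.14, edgeR adjusted p = 0.953), and Foxp3Ctrl node 3 lay below all 3 Foxp3ΔJag1 nodes. The proliferation markers summed to 387, 418 and 526 CPM in Foxp3ΔJag1 nodes and 600, 533 and 401 CPM in Foxp3Ctrl nodes, overlapping, with all 5 lower on average in Foxp3ΔJag1 nodes. Erythroid markers (5 genes) did not overlap, summing to 18.8, 13.8 and 22.7 CPM in Foxp3ΔJag1 nodes and 28.5, 68.2 and 67.7 CPM in Foxp3Ctrl nodes, with all 4 tested at an unadjusted p under 0.05 and none called. All 5 fibroblast and all 5 endothelial markers had negative log2 fold changes, none called. Positive log2 fold changes were found for 6 of 7 T cell markers, none called. All 4 tested peripheral nerve markers and all 4 tested skeletal muscle markers were positive as well, none called. The part of these markers in the differences of the 39 genes was not tested.

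**Figure D5:**
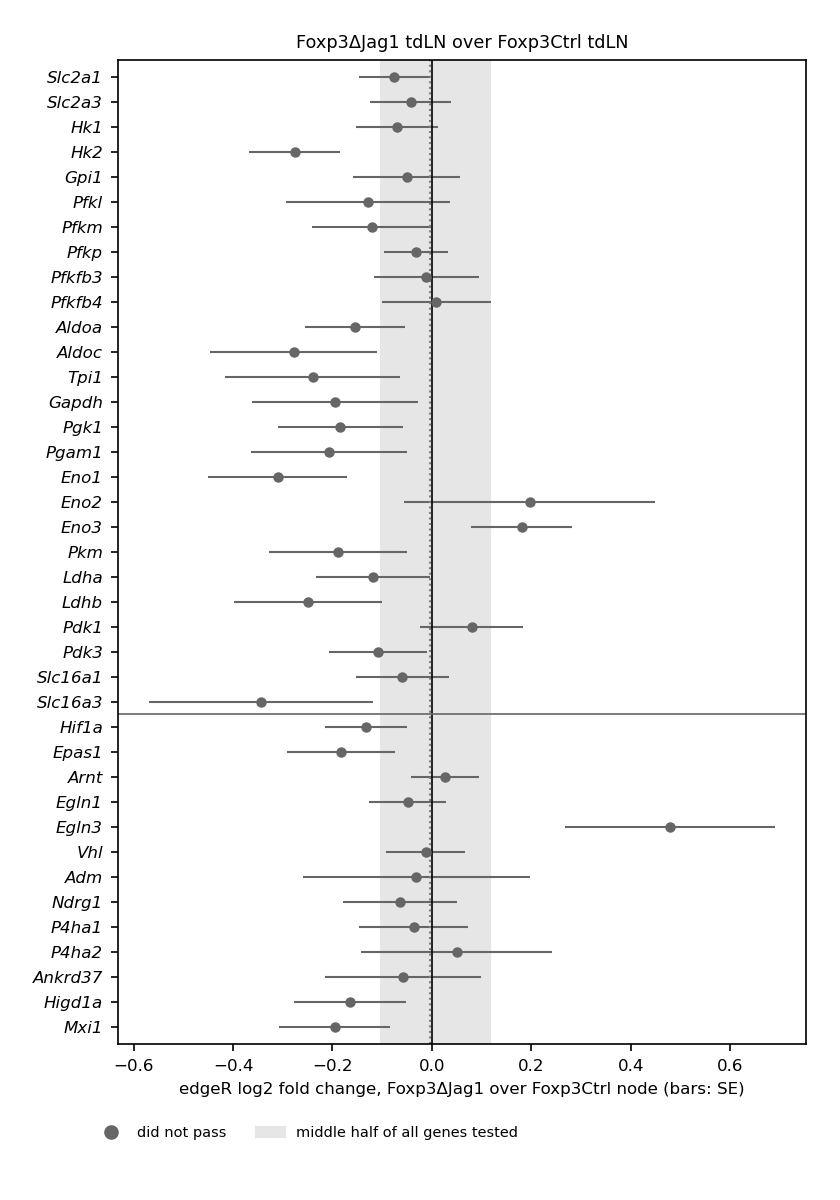
Log2 fold change of each of the 39 genes, Foxp3ΔJag1 node over Foxp3Ctrl node, with bars for the SE; the grey band holds the middle 50% of all 18440 genes tested. All points lie between -0.34 (Slc16a3) and 0.48 (Egln3), and none passed the test.

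Isozyme ratios were then set against each other between the genotypes. Of the 15 pairs, Egln3 over Egln1 was the only one whose groups did not overlap, with log2 ratios of -3.16, -3.31 and -3.61 in Foxp3ΔJag1 nodes and -3.86, -3.71 and -4.11 in Foxp3Ctrl nodes (difference 0.54, exact permutation p = 0.1, the smallest possible). The number of pairs apart rested on single libraries, and was 2 without Foxp3ΔJag1 node 3, 2 without Foxp3Ctrl node 1, 3 without Foxp3Ctrl node 2 and 5 without Foxp3Ctrl node 3. Slc16a3, which changed most between tissues, had 5.67, 5.25 and 5.90 CPM in Foxp3ΔJag1 nodes and 5.29, 9.45 and 6.20 CPM in Foxp3Ctrl nodes, where node 2 stood above the other 5 nodes. None of the genes in the 5 further lists was called in nodes, at an edgeR adjusted p of 0.953 for the smallest of each list. These were Tfrc, the transferrin receptor (log2 fold change -0.21), Arnt2 (0.24), Pgam2 (-0.35), G6pdx (-0.18) and Mpc1 (-0.18). With 3 libraries per genotype these comparisons do not show that the nodes are alike.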

How the data were processed

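Whole-number counts of reads per gene were deposited by the authors with nodes and tumours kept apart. Trimmomatic 0.36, STAR 2.5.2b, featureCounts of Subread 1.5.2 and the build GRCm38 are named in the submitters' processing notes. Which annotation was used, and whether strand was counted, is not given in the sources used here, and overlapping genes may share reads. The labels hold 13 samples, all of batch 1, and RNA had an integrity number over 9. Of the libraries, 9 were used, and 3 columns of the tumour table whose names match no sample were not. GENCODE M21 gave symbols, lengths and positions for 49056 of the identifiers. The members and gene lists were chosen with earlier results of these data known.

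CPM used library totals. Genes were tested with edgeR 4.0.16 in R 4.3.3 (TMM, filterByExpr, robust quasi-likelihood, each comparison fitted alone, 2-sided, Benjamini-Hochberg over all genes tested, FDR 0.05). Isozyme log2 ratios had 0.5 added to each count. Genes named with values were all members, the 2 called genes with the smallest p per direction of each further list, and 1 per list in nodes. The alternatives were DESeq2 1.42.0 and its size factors, limma-voom (limma 3.58.1), library size only, no filter, a minimum CPM of 1 in 3 or more libraries, a joint fit, FDR 0.01, 5 added to each count, a replicate block and leaving out each library.

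Tumour and node libraries share mouse codes, so same-numbered libraries come from the same animal, and their deviations from the group means correlated at -0.083, 0.127 and -0.0027. Replicates differed by more than sampling noise (18.82 to 83.56 for chi-square over its degrees of freedom). The test was run on simulated counts for 18566 genes of the tumour comparison and recovered 54 of the 100 made with a 2-fold change and 88 of the 100 made with a 4-fold change, with 20 false calls among 162. For the node comparison (18440 genes) it found 58 of 100 and 90 of 100, with 20 false calls among 168. In both, false calls took a larger share of the calls than the FDR of 0.05 aims at. Only these few genes were changed, whereas 73.2% of genes were called in the real tumour comparison. The rates therefore do not carry over to that comparison.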

Additional observations from a re-analysis of the deposited data

How the results depend on the processing

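Across normalizations, tools, filters, thresholds, the joint fit and leaving out libraries, between 29 and 32 members rose and 4 or 5 fell in tumours, and 0 members were called in nodes. Among the further lists between 41 and 45 genes rose and between 15 and 19 fell in tumours. The number of isozyme pairs whose tumours and nodes lay apart was 13 of 15 in each alternative. In nodes the number of pairs apart, 1 with all libraries, was between 1 and 5 when single libraries were left out, at the 5 end without Foxp3Ctrl node 3.

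Signs turned only where the value was near 0. Ankrd37 in tumours, at log2 -0.14 with all libraries, lay between -0.315 (without tumour 2) and 0.215 (without tumour 3), and was 0.0304 without Foxp3Ctrl node 2. Log2 Egln3 over Egln1 in tumours shifted by -0.0259 with 5 added to each count, -0.106 without Foxp3Ctrl node 3, -0.0992 without tumour 2 and 0.103 without tumour 1. Log2 Pfkp over Pfkm shifted by 0.128 without tumour 3 and by -0.357 without tumour 1. Pdk1 and Arnt passed in the joint fit (edgeR adjusted p = 0.0404 and 0.0147), and Vhl did not pass at an FDR of 0.01. The cause of these turns was not tested.

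With the mouse as a replicate block 30 members rose and 5 fell in tumours, the added call being Eno3, and it changed no other call of a member. All 3 same-mouse differences had 1 sign in 13 of 15 isozyme pairs, where a sign-flip test cannot go below an exact p of 0.25. In nodes the genotypes share only replicate numbers. Their deviations correlated at -0.165, 0.0340 and -0.124, only replicate 2 correlated best with its own number, and the replicate block left 0 members called.

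The lowest levels in nodes, at under 11 CPM, were those of Egln3, Adm, P4ha2, Aldoc, Ankrd37 and Slc16a3.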

Other observations

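Eno1b, a near copy of Eno1 that is annotated as a coding gene, stood apart in 1 mouse. It had 2.96, 12.1 and 12.1 CPM in tumours, against 32.4, 32.6 and 31.7 CPM in Foxp3ΔJag1 nodes and 0.386, 42.4 and 28.6 CPM in Foxp3Ctrl nodes. The low values, in tumour 1 and Foxp3Ctrl node 1, carry the same mouse code. Eno1 itself had 3509 CPM in tumour 1 and 426 CPM in Foxp3Ctrl node 1. Eno1b was picked after its values were seen.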
